A study of Mus musculus with 4 samples.

Results

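The genes described here are 46 genes of 18 imprinted domains, listed by domain and by the parental allele that is known to be expressed, in E14 mouse embryonic stem cells in which Kdm2b was knocked down. A listed gene was measured where the array annotation gave a probe set its symbol and no other; where several such probe sets exist the brightest over the 4 arrays was kept. By this rule 39 of the 46 genes, in 17 domains, were measured among 19938 genes in all, and each of the 39 had 1 such probe set. The Kdm2b knockdown cells (2 arrays) and the control cells (2 arrays) are both E14 cells of an inbred 129 strain, grown on gelatin in 15% serum with leukemia inhibitory factor at 1000 units/ml. Lentiviral vectors were given to both at 10 MOI, and puromycin (2 µg/ml, from 48 h after transduction) selected the cells that carried them. The labels do not say which sequence was targeted or what the control vector carried. Nothing in them tells whether the replicates are separate cultures, so the p-values speak for the spread between the deposited samples alone, and that spread may be technical.

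Imprinted genes are transcribed mainly or only from the allele inherited from the mother or from the father. They lie in clusters, and each cluster is governed by an imprinting control region whose DNA is methylated on the allele of a single parent. In embryonic stem cells Zfp57 binds the methylated motif TGCCGC in such regions and, through Trim28, recruits the enzymes that keep the methylation in place during replication. Kdm2b binds unmethylated CpG dinucleotides through a CxxC zinc finger, demethylates histone H3 and brings a variant Polycomb repressive complex to CpG islands. Some of the genes are imprinted only in certain tissues, Ddc in the developing heart and several genes of the Kcnq1 domain in the placenta, and Igf2r is expressed from both alleles in undifferentiated embryonic stem cells. The arrays read the sum of both alleles, and an inbred strain offers no sequence differences to separate them.

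Kdm2b itself read 9.20 and 9.19 in the knockdown cells, against 10.74 and 10.64 in the control cells (all values are log2 expression). The difference was -1.50 (SE 0.066, limma adjusted p = 0.0039). The 10 embryonic stem cell markers were all measured and none passed the threshold in either direction at an adjusted p under 0.05. At an unadjusted p under 0.05 in limma there were 3 of the 10, and 5941 of all 19938 genes. The summed linear signal of the 10 markers was 97959 and 100429 in knockdown cells, against 96559 and 96983 in control cells. Of 14 primitive endoderm markers, 5 rose and 0 fell in limma (11 higher and 0 lower at an unadjusted p under 0.05), and their summed signal was 13073 and 18342 in knockdown cells, against 8850 and 7444 in control cells. The 5 that rose are 35.7% of the list, against 12.2% of all genes that passed (5.00% higher and 7.19% lower). Gata6 changed by 2.12, Dab2 by 1.12, Col4a1 by 0.54 and Sox17 by 0.53. The markers Sox17, Afp, Ttr and Amn lay below the median of all genes on every array. Fibroblast, trophoblast and neural marker lists gave 1 higher and 2 lower of 14, 3 higher and 1 lower of 11, and 1 higher and 1 lower of 9 (21.4%, 36.4% and 22.2% called), with summed signals of 15591 and 16210, 12549 and 12176, and 5670 and 5571 in knockdown cells, against 15451 and 16790, 12156 and 12091, and 5745 and 5580 in control cells. Among the called fibroblast markers, Twist1 changed by 0.43, Acta2 by -0.41 and Pdgfrb by -0.52. The called trophoblast markers were Tfap2c at -1.54, Eomes at 0.92, Krt8 at 0.79 and Cdx2 at 0.35. For the neural list they were Pax6 at -0.80 and Nes at 0.72. In such bulk samples, fewer cells of a type and less RNA per cell cannot be told apart. The part of the primitive endoderm markers in the results below was not tested.

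Among the 39 measured imprinted genes, 6 rose and 4 fell in the knockdown cells. Those that rose were Mest, Nnat, Plagl1, Rian, Ndn and Zdbf2, and those that fell were Impact, Mkrn3, Copg2 and Ddc. Changes were small, from 1.23-fold for Zdbf2 to 1.94-fold for Impact, and 29 genes did not pass the threshold. Called genes were those with an adjusted p under 0.05 in a limma fit over all 19938 genes (Benjamini-Hochberg). Over all genes, 12.2% passed it, 5.00% higher and 7.19% lower, so that 25.6% of the imprinted genes passed against 12.2% in the background. With the arrays centred on their medians, 841 genes were higher and 1866 lower, in place of 997 higher and 1434 lower. This background depends on signal: of the genes above the median level 17.7% passed, and of the 24 imprinted genes above it 33.3% did (5 higher, 3 lower). At or below the median level 1 of 15 imprinted genes rose and 1 fell, which is 13.3%, against 6.69% of all genes there. The median log2 fold change was 0.09 over the imprinted genes and 0.03 over all genes, and the median size of the change, without its sign, was 0.23 and 0.12. In 34 of the 39 genes the knockdown and control arrays did not overlap, where 58.8% of all genes did not. The median gap between the replicate arrays of a group was 0.06 for the imprinted genes in knockdown cells and 0.07 in control cells. Over all genes it was 0.08 in knockdown cells and 0.08 in control cells.

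Both directions occurred in the group and within single domains. Of the 21 measured genes of the paternal allele, 5 rose and 3 fell, with a median log2 fold change of 0.13, while of the 18 measured genes of the maternal allele 1 rose (Rian) and 1 fell (Copg2), with a median of 0.07. The shares called were 38.1% for the paternal and 11.1% for the maternal allele, against 12.2% of all genes. Whether the shares of the 2 alleles differ was not tested. The calls needed all 4 arrays. When any 1 array was left out, limma called 0 of 19938 genes (3495 to 4215 had an unadjusted p under 0.05, and 5941 had one with the full set of arrays), so 0 imprinted genes passed without knockdown replicate 1, knockdown replicate 2, control replicate 1 or control replicate 2. Impact was then between -1.03 and -0.88 and Mest between 0.49 and 0.53; since the groups do not overlap in any of the 10 called genes, leaving out an array could not turn their direction.

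**Figure D1:**
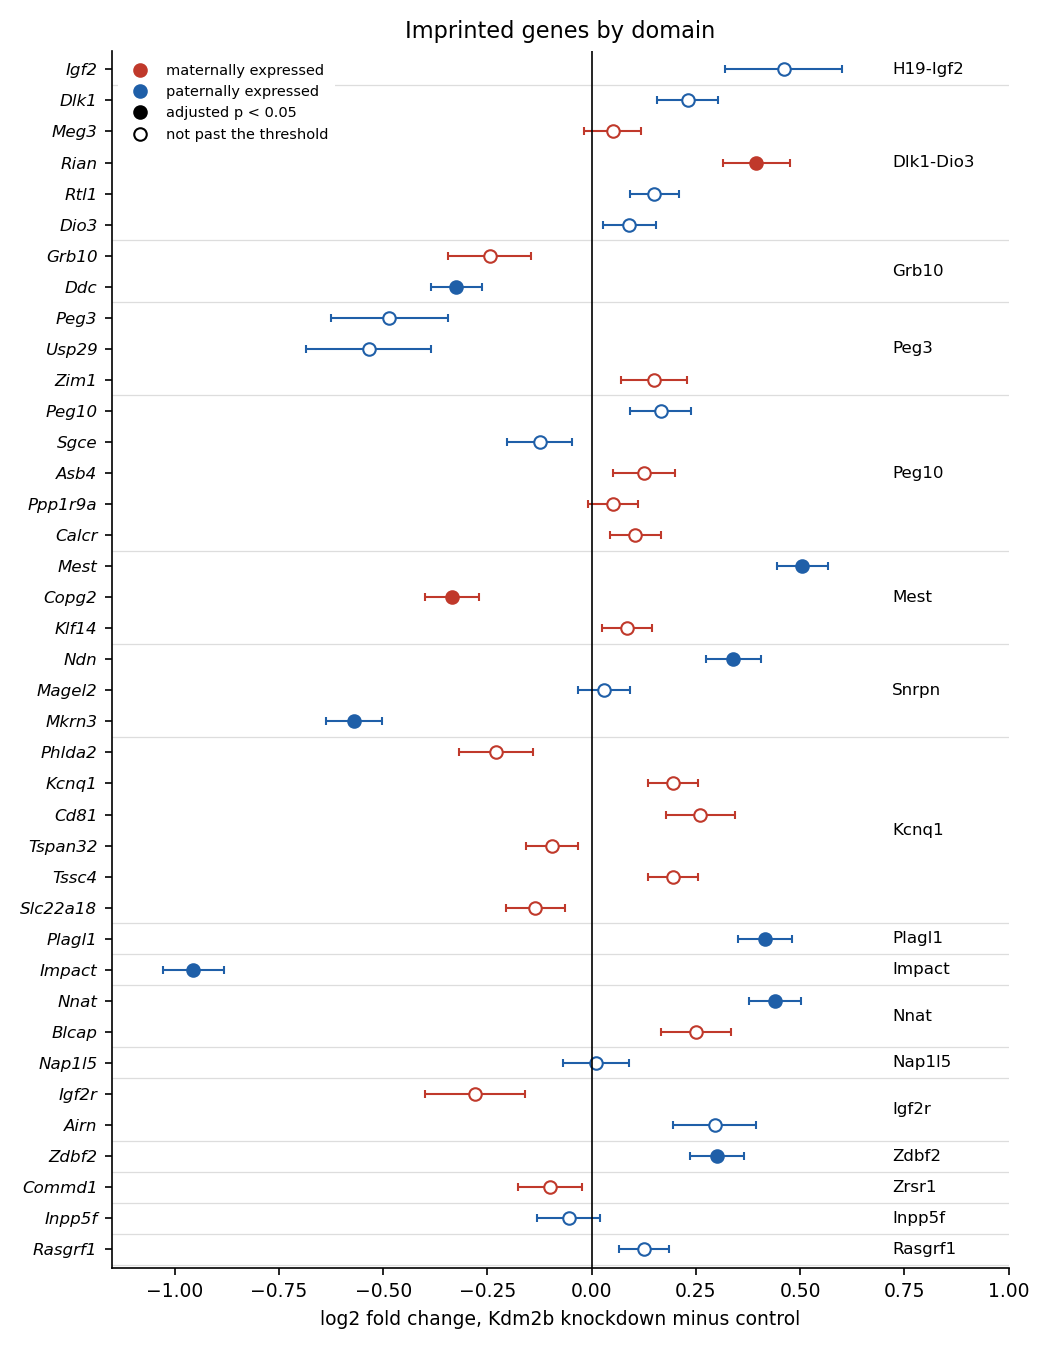
Log2 fold change (horizontal axis, Kdm2b knockdown minus control) of the 39 measured imprinted genes, grouped by domain, with bars of 1 SE from limma; colour gives the expressed allele and filled points have an adjusted p under 0.05. Values run from -0.96 for Impact to 0.51 for Mest, and the Mest and Snrpn domains each hold a gene that rose and a gene that fell.

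Plagl1, Igf2, Igf2r and Grb10 act on fetal growth. Plagl1, a zinc finger transcription factor of the paternal allele that is known to activate other imprinted genes, read 9.50 and 9.44 in knockdown cells, against 9.02 and 9.09 in control cells. Both knockdown arrays lay above both control arrays, and Plagl1 rose by 0.42 (SE 0.065, limma adjusted p = 0.0174). Igf2, the paternally expressed fetal growth factor, read 9.95 and 10.38 in knockdown cells, against 9.67 and 9.74 in control cells. The groups did not overlap, but the knockdown arrays lay 0.43 apart, the widest gap within the knockdown pair among the 39 genes, and the difference of 0.46 (SE 0.14) did not pass the threshold (adjusted p = 0.0891). Knockdown replicate 2, the higher of the pair for Igf2, was also the array with the highest summed primitive endoderm signal, and the relation between them was not tested. Without knockdown replicate 2 the difference for Igf2 was 0.25.

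Igf2r, the maternally expressed receptor that clears Igf2, read 11.28 and 11.11 in knockdown cells, against 11.63 and 11.32 in control cells. Airn, the paternally expressed non-coding RNA antisense to Igf2r that silences it in differentiated cells, read 7.49 and 7.37 in knockdown cells, against 7.01 and 7.26 in control cells. Neither passed the threshold, with log2 fold changes of -0.28 (adjusted p = 0.182) and 0.30 (adjusted p = 0.115), although neither gene's arrays overlapped between the groups. Without control replicate 1 the differences were -0.13 for Igf2r and 0.17 for Airn, and without control replicate 2 that for Igf2r was -0.44. Grb10, an adaptor that restrains insulin and growth factor signalling, read 11.73 and 12.01 in knockdown cells, against 12.08 and 12.15 in control cells, a difference of -0.25 (adjusted p = 0.178). Leaving out knockdown replicate 1 made it -0.11, and leaving out the other knockdown array made it -0.39. Its neighbour Ddc, the aromatic L-amino acid decarboxylase, read 9.06 and 9.10 in knockdown cells, against 9.40 and 9.41 in control cells. The gap between the groups was wide beside the gaps within them, and Ddc fell by 0.33 (SE 0.061, adjusted p = 0.0262). H19, the maternally expressed partner of Igf2, was not analysed here.

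In the Mest domain on chromosome 6 the genes moved in opposite directions. Mest, a paternally expressed gene for an alpha/beta hydrolase-fold protein, read 12.83 and 12.87 in knockdown cells, against 12.33 and 12.36 in control cells. Replicates lay within 0.04 of each other in each group and the groups were well apart, and Mest rose by 0.51 (SE 0.061, limma adjusted p = 0.0102). Copg2, a coatomer subunit gene whose 3′ end meets that of Mest, read 11.51 and 11.56 in knockdown cells, against 11.90 and 11.84 in control cells. Both knockdown arrays were below both control arrays, and Copg2 fell by 0.34 (SE 0.064, adjusted p = 0.0276). Klf14, a Krüppel-like transcription factor gene of the maternal allele, differed by 0.09 (adjusted p = 0.394). The Mest promoter window is shown because Mest rose and because its window, unlike those of most genes, holds the Zfp57 motif. It is chr6:30737800-30738099 (GRCm38.p6, plus strand, RefSeq), 250 bases before to 50 after the start, with its 17 CpG dinucleotides in capitals.
Mest: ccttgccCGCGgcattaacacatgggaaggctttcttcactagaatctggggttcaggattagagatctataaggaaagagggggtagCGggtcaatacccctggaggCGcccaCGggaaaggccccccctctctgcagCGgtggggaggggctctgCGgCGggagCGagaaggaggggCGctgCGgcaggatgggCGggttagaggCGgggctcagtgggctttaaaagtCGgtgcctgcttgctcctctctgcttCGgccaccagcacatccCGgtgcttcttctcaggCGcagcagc

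In the Snrpn domain on chromosome 7, the mouse counterpart of the Prader-Willi region, 3 paternally expressed genes were measured and they did not move together. Ndn, which encodes the MAGE-family protein necdin, read 9.60 and 9.49 in knockdown cells, against 9.20 and 9.21 in control cells. The groups did not overlap, and Ndn rose by 0.34 (SE 0.067, limma adjusted p = 0.0307). Mkrn3, a makorin ring finger gene, read 7.39 and 7.29 in knockdown cells, against 7.92 and 7.90 in control cells. Here both knockdown arrays were the lower ones, and Mkrn3 fell by 0.57 (SE 0.066, adjusted p = 0.00936). Magel2, another MAGE-family gene, which lies between Ndn and Mkrn3 in the RefSeq promoter table, had overlapping groups and a difference of 0.03 (adjusted p = 0.788). No value is given for Snrpn or Ube3a, whose probe sets carry several symbols.

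Of the genes that lie alone or in pairs, Impact changed most. Impact, an inhibitor of the eIF2 kinase Gcn2, read 11.94 and 11.94 in knockdown cells, against 12.97 and 12.82 in control cells. Both knockdown arrays lay far below both control arrays, and Impact fell by 0.96 (SE 0.074, limma adjusted p = 0.00551). Nnat, which encodes the membrane proteolipid neuronatin and sits inside an intron of Blcap, read 9.34 and 9.30 in knockdown cells, against 8.86 and 8.90 in control cells. The groups were clearly apart, and Nnat rose by 0.44 (SE 0.062, adjusted p = 0.0138). Its host Blcap, whose neuronal transcripts are known to be maternal, read 9.54 and 9.56 in knockdown cells, against 9.40 and 9.20 in control cells, a difference of 0.25 (adjusted p = 0.110). Zdbf2, a zinc finger gene of the paternal allele, read 12.10 and 12.07 in knockdown cells, against 11.74 and 11.83 in control cells. The knockdown arrays were again the higher ones, and Zdbf2 rose by 0.30 (SE 0.065, adjusted p = 0.0393). Nap1l5, Commd1, Inpp5f and Rasgrf1 differed by 0.01, -0.10, -0.06 and 0.13, and only Rasgrf1, a Ras guanine nucleotide exchange factor, had groups that did not overlap. Zrsr1 was not analysed here, and Gnas shares its probe set with other symbols.

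**Figure D2:**
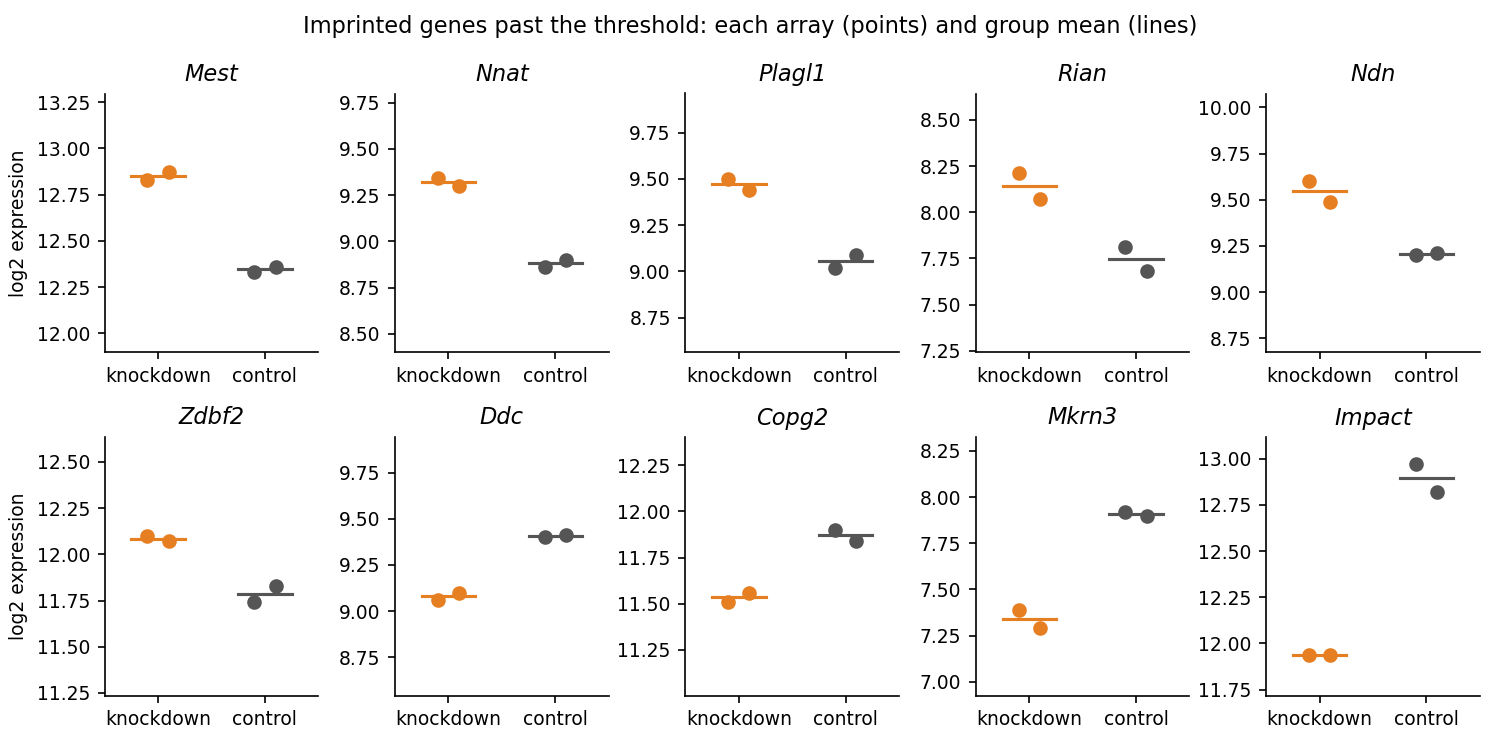
Log2 expression (vertical axes, each spanning the same number of log2 units) of the 10 imprinted genes with an adjusted p under 0.05, with a point for each array and a line for the group mean, Kdm2b knockdown left and control right. In each panel the 2 knockdown arrays lie on the same side of the 2 control arrays, from 0.51 above for Mest to 0.96 below for Impact.

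The Peg3 domain gave larger differences that did not pass the threshold. Peg3, a zinc finger gene of the paternal allele, read 10.99 and 10.60 in knockdown cells, against 11.36 and 11.20 in control cells, and Usp29, a deubiquitinase-family gene that is transcribed away from the same start region, read 7.23 and 7.31 in knockdown cells, against 7.57 and 8.04 in control cells. Neither gene's groups overlapped, but Peg3 varied within the knockdown cells and Usp29 within the control cells. The differences were -0.49 for Peg3 (SE 0.14, adjusted p = 0.0744) and -0.54 for Usp29 (SE 0.15, adjusted p = 0.0751). Both passed when the arrays were centred on their medians, with -0.53 (adjusted p = 0.0434) and -0.58 (adjusted p = 0.0430). Without knockdown replicate 2 the difference for Peg3 was -0.29, and without control replicate 2 that for Usp29 was -0.30. Zim1, a zinc finger gene of the maternal allele, differed by 0.15 (adjusted p = 0.264).

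In the Peg10 domain none of 5 genes passed, either adjusted or at an unadjusted p under 0.05 in limma. Peg10, a retrotransposon-derived gene needed in the placenta, read 14.02 and 14.08 in knockdown cells, against 13.82 and 13.95 in control cells. Its difference of 0.17 (adjusted p = 0.195) was the largest of the 5, and the paternally expressed Sgce, for epsilon-sarcoglycan, and the maternally expressed Asb4, Calcr and Ppp1r9a ranged from -0.13 to 0.13.

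In the Kcnq1 domain the non-coding RNA Kcnq1ot1 (not analysed here) is known to silence its neighbours in cis. Of 6 maternally expressed genes there, 0 passed, while 4 had an unadjusted p under 0.05 in limma. Over all genes, 5941 of 19938 had an unadjusted p under 0.05. Cd81, a tetraspanin, read 13.71 and 13.53 in knockdown cells, against 13.32 and 13.40 in control cells, a difference of 0.26 (SE 0.083, adjusted p = 0.0982). Kcnq1, a potassium channel subunit, and Tssc4, a splicing-related protein, each differed by 0.20 (adjusted p = 0.0893 and 0.0934). Phlda2, which restrains placental growth, differed by -0.23 (adjusted p = 0.152), and Tspan32 and Slc22a18 by -0.10 and -0.14. For none of these 6 genes did the groups overlap, where 58.8% of all genes had no overlap. Cdkn1c, a cell cycle inhibitor of the same interval that is not among the 46 genes, read 10.90 and 10.93 in knockdown cells, against 10.22 and 10.45 in control cells. Both knockdown arrays lay above both control arrays, and Cdkn1c rose by 0.58 (SE 0.090, adjusted p = 0.0168).

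In the Dlk1-Dio3 domain on chromosome 12, the paternal allele expresses the protein-coding genes Dlk1, Rtl1 and Dio3, and the maternal allele expresses a chain of non-coding RNAs, Meg3, Rian and Mirg, with many small nucleolar RNAs and microRNAs within them. Rian, the host of C/D box small nucleolar RNAs, read 8.21 and 8.07 in knockdown cells, against 7.81 and 7.68 in control cells. The groups did not overlap, and Rian rose by 0.40 (SE 0.081, limma adjusted p = 0.0340). The small nucleolar RNA genes measured in the interval, DQ267101 and DQ267102, differed by 0.09 (limma adjusted p = 0.548) and 0.155 (adjusted p = 0.189). Neither passed. Meg3 read 11.75 and 11.75 in knockdown cells, against 11.64 and 11.76 in control cells. Its groups overlapped, and its difference was 0.05 (adjusted p = 0.671). Dlk1, a Notch-family ligand homologue, read 10.47 and 10.50 in knockdown cells, against 10.18 and 10.33 in control cells, a difference of 0.23 (adjusted p = 0.102). Rtl1, a retrotransposon-derived placental gene, and Dio3, which inactivates thyroid hormone, differed by 0.15 and 0.09 and did not pass. Mirg shares its probe set with another symbol and is given no value.

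The array also carries probe sets named for 40 microRNA genes of the interval. Such probe sets are short and can read the precursor or the longer host RNA, and mature microRNA was not measured. Of the 40, 4 rose (Mir382, Mir329, Mir380 and Mir485) and 0 fell in limma, with 18 higher and 0 lower at an unadjusted p under 0.05. The 4 are 10.0% of the 40, where 5.00% of all genes rose. Of the 9972 genes at or below the median level, 331 rose. Over all 297 microRNA genes of the array, which include the 40, 2.36% rose, and of the 257 elsewhere 3 rose and 3 fell. At an unadjusted p under 0.05 in limma, 41 of those 257 were higher and 10 lower. Among all 19938 genes, 3016 were higher and 2925 lower by that measure. The differences were above 0 for 37 of the 40, with a median of 0.19, and for 178 of the 257 microRNA genes elsewhere, with a median of 0.06. The median was 0.09 for the 8 between Dlk1 and the start of Rian, of which 0 passed (1 at an unadjusted p under 0.05). It was 0.22 for the 32 that begin after the start of Rian, within or beyond it, which include all 4 that rose. The median of the 40 ranged from 0.16 to 0.22 when single arrays were left out. With the arrays centred on their medians it was 0.15, against 0.02 for the microRNA genes elsewhere. With genes at or below a mean log2 of 9 removed, 8 of the 40 remained. Their median was 0.20, against 0.16 for the 29 microRNA genes that remained elsewhere, so the medians lay close together there. The 4 genes that rose were all removed by this cut, with means of 8.33 (Mir382), 8.29 (Mir329), 5.69 (Mir380) and 8.75 (Mir485). The probe sets of the 40 genes lie close together and may read the same host RNA, so they are not separate observations.

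**Figure D3:**
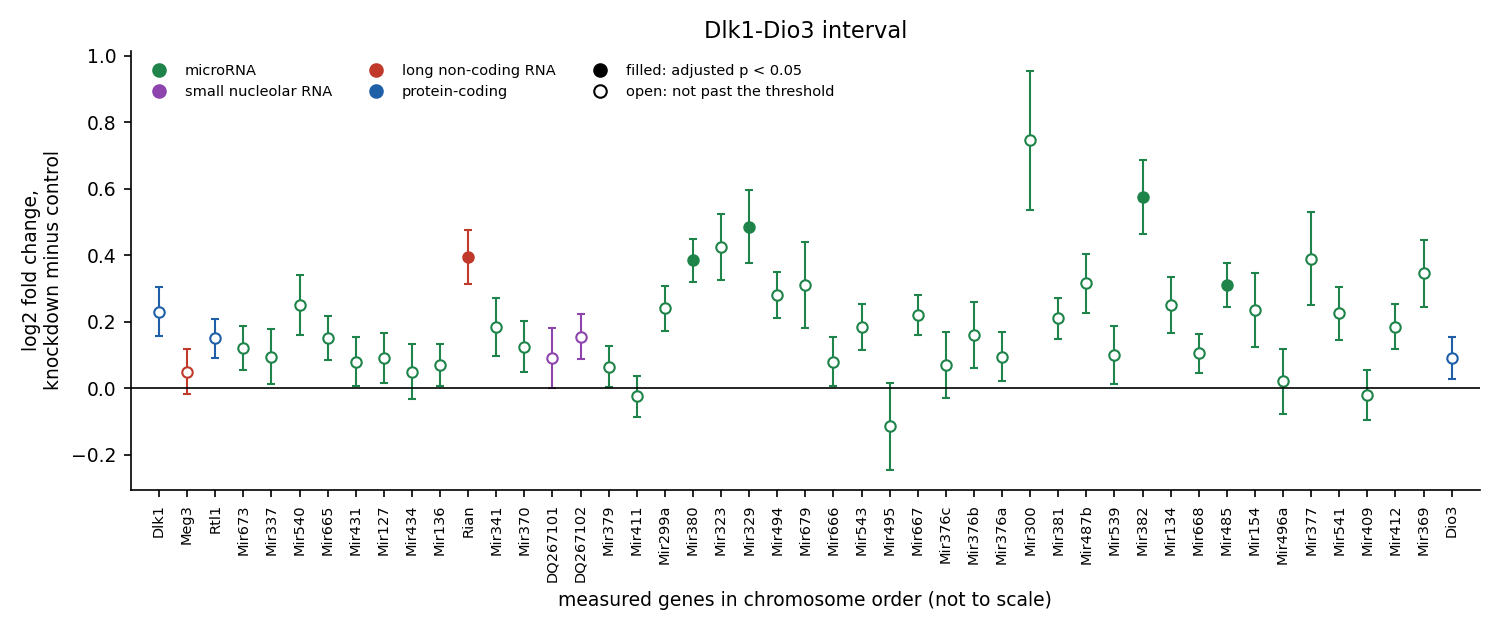
Log2 fold change (vertical axis, Kdm2b knockdown minus control, bars of 1 SE from limma) of each measured gene of the Dlk1-Dio3 interval, in chromosome order from Dlk1 to Dio3; filled points have an adjusted p under 0.05. Of the 40 microRNA genes 37 lie above 0, and the 4 that rose lie to the right of Rian.

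The mature products found for the 4 microRNA genes that rose are shown to compare their seeds. Seeds are the bases at positions 2 to 8, which are in capitals and pair with targets. For Mir485 only miR-485-3p was in the set of sequences used. The products are RefSeq sequences, from chr12:109711806-109711827 for miR-380-5p to chr12:109734946-109734967 for miR-485-3p (GRCm38.p6, plus strand).
miR-380-5p: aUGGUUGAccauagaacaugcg
miR-380-3p: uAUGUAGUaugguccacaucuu
miR-329-5p: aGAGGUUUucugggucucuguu
miR-329-3p: aACACACCcagcuaaccuuuuu
miR-382-5p: gAAGUUGUucgugguggauucg
miR-382-3p: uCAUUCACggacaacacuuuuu
miR-485-3p: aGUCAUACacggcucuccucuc

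These 7 products have 7 different seeds. Across the 76 mature sequences found for the 40 genes there were 74 seeds, and 2 of them were shared by a pair of products each. Some genes, among them Mir485, had a lone product in this set, so seeds of any other product were not compared. Mir382 read 8.54 and 8.69 in knockdown cells, against 7.91 and 8.17 in control cells, and rose by 0.58 (SE 0.11, limma adjusted p = 0.0254). Mir329 read 8.44 and 8.63 in knockdown cells, against 7.92 and 8.18 in control cells, and rose by 0.49 (SE 0.11, adjusted p = 0.0441). For both genes each knockdown array lay above each control array. Mir380 read 5.89 and 5.87 in knockdown cells, against 5.45 and 5.54 in control cells, and rose by 0.39 (SE 0.065, adjusted p = 0.0206). The signal of Mir380 was low, with a mean of 5.69, at percentile 6.0 of all genes. Mir485 read 8.90 and 8.90 in knockdown cells, against 8.54 and 8.64 in control cells, and rose by 0.31 (SE 0.066, adjusted p = 0.0370). Neither gene's groups overlapped. Mir300, chosen after its values were seen, differed most, by 0.75, but its control arrays were 6.35 and 6.99 beside 7.27 and 7.56 in knockdown cells, and it did not pass (adjusted p = 0.0769).

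The table of RefSeq promoters used here gave a window of 300 bases for 39 of the 46 genes, with a median of 17 CpG dinucleotides, against 16 over 15614 of the genes tested (where a gene has several windows, the one with most CpG). The motif TGCCGC, searched on both strands, was in 11 of the 39 windows (28.2%), against 16.0% of the windows of the genes tested. Among the 33 measured genes with a window, 10 (30.3%) held the motif. Of the 24 of these that did not pass the threshold, 6 (25.0%) held it. Among the called genes it was in the windows of Mest (2 matches), Plagl1, Nnat and Copg2 (1 match each), and not in those of Zdbf2, Ndn, Rian, Mkrn3 and Ddc. CpG counts ran from 0 for Rian, 5 for Ddc and 11 for Ndn to 25 for Copg2, 26 for Plagl1 and 38 for Zdbf2, so that CpG counts of the 6 genes that rose (0 to 38) and of 3 of the 4 that fell (5 to 25) overlapped. No window of Impact, the other gene that fell, was used here. A match is a description of these letters and does not show binding. The windows of Plagl1, which rose, of Mkrn3, which fell, and of Rian, which rose with no CpG in its window, are shown for comparison with that of Mest. They are chr10:13090582-13090881 (plus strand), chr7:62420104-62420403 (minus strand) and chr12:109603695-109603994 (plus strand) of GRCm38.p6, written 5′ to 3′ with CpG in capitals.
Plagl1: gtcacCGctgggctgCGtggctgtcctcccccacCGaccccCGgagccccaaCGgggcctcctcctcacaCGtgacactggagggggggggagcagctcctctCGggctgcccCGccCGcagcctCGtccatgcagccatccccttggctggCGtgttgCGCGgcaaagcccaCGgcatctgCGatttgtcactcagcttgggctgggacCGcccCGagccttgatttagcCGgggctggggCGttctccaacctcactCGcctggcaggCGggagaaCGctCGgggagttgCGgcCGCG
Mkrn3: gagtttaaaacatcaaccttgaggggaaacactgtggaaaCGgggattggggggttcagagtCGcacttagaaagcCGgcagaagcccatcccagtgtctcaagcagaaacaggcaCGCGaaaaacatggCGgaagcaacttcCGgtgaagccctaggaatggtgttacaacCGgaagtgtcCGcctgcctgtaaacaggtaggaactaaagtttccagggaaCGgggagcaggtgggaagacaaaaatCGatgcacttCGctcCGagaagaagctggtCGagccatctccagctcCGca
Rian: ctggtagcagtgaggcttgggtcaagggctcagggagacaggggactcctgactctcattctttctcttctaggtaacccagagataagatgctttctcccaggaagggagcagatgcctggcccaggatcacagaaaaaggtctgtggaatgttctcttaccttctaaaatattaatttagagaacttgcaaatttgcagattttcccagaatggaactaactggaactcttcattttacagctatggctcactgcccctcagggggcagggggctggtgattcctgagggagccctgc

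A list of imprint and DNA methylation factors was read beside the imprinted genes. Not all of them maintain imprints, since the list also holds Tet1, Tet2, Tet3, Dnmt3l, Kdm1b and Zfp42. Of the 24 measured, 1 rose and 1 fell in limma (2 higher and 5 lower at an unadjusted p under 0.05), with a median log2 fold change of 0.01. The called factors are 8.33% of the list, where 12.2% of all genes changed. The list is bright, with a median level of 11.94, and of all genes above the median level 17.7% passed. Zfp57, the reader of the methylated motif, read 13.69 and 13.72 in knockdown cells, against 13.39 and 13.45 in control cells, and rose by 0.29 (SE 0.062, adjusted p = 0.0397), which missed the threshold with centred arrays (0.25, adjusted p = 0.058). Dppa3, which protects methylation after fertilization, read 7.64 and 7.39 in knockdown cells, against 8.47 and 8.53 in control cells, and fell by 0.99 (SE 0.095, adjusted p = 0.00676). For both factors the groups did not overlap. Trim28, the corepressor that Zfp57 recruits, Dnmt1, the maintenance methyltransferase, and Uhrf1, its guide to replicated DNA, differed by 0.11 (adjusted p = 0.278), 0.03 (adjusted p = 0.817) and -0.24 (adjusted p = 0.115).

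**Figure D4:**
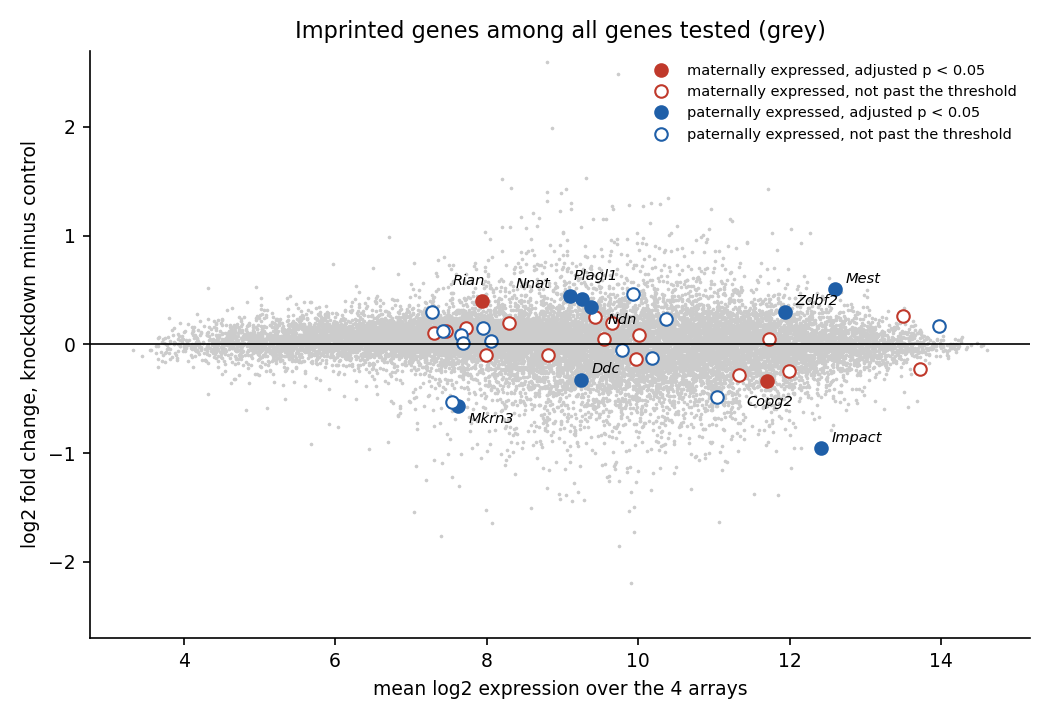
Log2 fold change (vertical axis, Kdm2b knockdown minus control) against mean log2 expression over the 4 arrays (horizontal axis) for all 19938 genes in grey and the 39 imprinted genes in colour. The 10 labelled genes passed the threshold and lie on both sides of 0, 8 of them among genes above the median level.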

How the data were processed

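Total RNA was measured on 4 Affymetrix MoGene 1.0 ST arrays, 2 of Kdm2b knockdown and 2 of control E14 cells, grouped by sample title. The authors deposited log2 expression values per probe set, and per the submitters' processing notes the software was Affymetrix Expression Console. The sources used here do not give its version, background step or scaling between arrays. Of 35557 probe sets, 21789 have 1 gene symbol in the platform annotation, 1621 several and 12147 none. By Entrez ID, 21698 of the 21789 matched RefSeq (GRCm38.p6), which changed 0 symbols. For 999 genes with several probe sets the brightest was used.

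Knockdown minus control was fitted over 19938 genes with limma 3.58.1 in R 4.3.3 (lmFit, eBayes with 3.9 prior and 2 residual degrees of freedom, two-sided, with group as the single term and Benjamini-Hochberg adjustment) after a check on simulated data. Number of arrays limits precision. No list was tested as a set. Alternatives were each array left out, replicate block, quantile normalization, median centring, a cut at mean log2 of 9, probe set rules, prior settings and an adjusted p of 0.1. The members and lists were chosen with earlier results of these data known. The rule for named genes asked for per-array values of every called member and, in the H19-Igf2, Dlk1-Dio3, Kcnq1 and Snrpn domains, of members with a change of at least 0.25, for up to 4 called genes of largest change from each other list, and for Cdkn1c and 5 maintenance factors. Per-array values of other members and of Mir300, and the change of the flanking gene beyond the 4, were added after their values were seen. For the called markers and for Chrna7, Aurkc, Pdk4, Trim28, Dnmt1 and Uhrf1, the change is given without per-array values. RefSeq promoter windows cover 250 bases before to 50 after a start.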

Additional observations from a re-analysis of the deposited data

How the results depend on the processing

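With the replicate block, limma called 0 of all genes (5411 at an unadjusted p under 0.05). So 0 imprinted genes were called higher, 0 lower and 0 of either allele. Of the imprint and DNA methylation factors, the other imprinted genes and the Dlk1-Dio3 microRNA genes, 0 were called. Impact and Mest then had an adjusted p of 0.127. The labels share replicate numbers only. Deviations of same-numbered arrays correlated at 0.095 across genes, which, with 2 pairs, does not establish a pairing. Leaving out each array in turn also gave 0 for each of these counts, with a lone array taken to vary like the other group. At an adjusted p under 0.1, 10 imprinted genes were higher. With arrays centred on their medians 6 rose and 6 fell, and 1 of the imprint and DNA methylation factors passed. With quantile normalization 6 rose and 5 fell. With dim genes removed, 5 rose and 3 fell of 24, and 1 maternally expressed gene passed, since Rian was removed; the Dlk1-Dio3 microRNA genes, of which 8 remained, were not counted there. Under the other settings each count stayed within 1.5 times its value.

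Of 46 single genes, 5 near 0 changed sign in some setting. Magel2 was -0.025 with quantile normalization, -0.01 with centred arrays and -0.005 to 0.065 with an array left out. Nap1l5 was -0.054, -0.03 and -0.08 to 0.10 in the same settings. Meg3 ranged from -0.01 to 0.11 and Inpp5f from -0.12 to 0.01 with an array left out, and Dnmt1 was -0.015 with centred arrays (0.025 as deposited). The cause was not tested. Centring moved each fold change by 0.04. The results rest on 2 arrays a group.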

Other observations

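Among 30 measured imprinted genes outside the 46, 3 rose and 0 fell in limma (5 higher and 3 lower at an unadjusted p under 0.05), with a median log2 fold change of 0.05. The 3 are 10.0% of the list, against 12.2% of all genes called, 5.00% higher and 7.19% lower. Cdkn1c is given above. Gatm, an enzyme of creatine synthesis, read 9.17 and 9.46 in knockdown cells, against 8.50 and 8.41 in control cells, and rose by 0.86 (SE 0.11, adjusted p = 0.0106). Pon2, a paraoxonase gene inside the Peg10 domain, read 9.35 and 9.45 in knockdown cells, against 8.64 and 8.66 in control cells, and rose by 0.75 (SE 0.066, adjusted p = 0.00576), while 0 of the 5 measured genes of the 46 in that domain passed.

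The genes just outside the domains were also read. On either side the nearest measured gene that is in none of the gene lists used here was taken, so closer listed genes were passed over. Of the 35 flanking genes, 0 rose and 5 fell in limma (5 higher and 9 lower at an unadjusted p under 0.05). The called genes are 14.3% of the 35, where 12.2% of all genes were called and 7.19% fell. Atp10a, a phospholipid flippase gene beside the Snrpn domain, read 8.83 and 8.66 in knockdown cells, against 9.42 and 9.55 in control cells, and fell by 0.74 (SE 0.086, adjusted p = 0.00936). Osbpl1a, an oxysterol-binding protein gene beside Impact, read 10.14 and 10.05 in knockdown cells, against 10.75 and 10.60 in control cells, and fell by 0.58 (SE 0.078, adjusted p = 0.0124), in the same direction as Impact. Chrna7, a nicotinic receptor subunit gene on the other side of the Snrpn domain, Aurkc, a kinase gene beside Peg3, and Pdk4, a pyruvate dehydrogenase kinase gene beside the Peg10 domain, fell by 0.53, 0.42 and 0.42. With any 1 array left out, 0 of these calls held in limma (3495 to 4215 of all genes at an unadjusted p under 0.05).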
